A study of Bos taurus with 6 samples.

Results

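Legumain (LGMN), 7 lysosomal cathepsins and cystatin C (CST3) were followed through 6 RNA-seq libraries of bovine late morulae. The cathepsins are CTSA, CTSB, CTSC, CTSD, CTSH, CTSL and CTSZ, and cystatin C is a secreted inhibitor of some of these enzymes. The 9 genes are part of the 15314 distinct named genes and were taken by gene symbol. All 9 were found and passed the minimum for testing, an average of 10 scaled reads. The embryos had received, by injection, small interfering RNA directed at NOTCH1 or at RBPJ, and control embryos a nonspecific one. Each group had 2 libraries of polyadenylated RNA, each from a pool of 15 embryos collected 6 days after in vitro fertilization, and GFP and RFP messenger RNA was spiked into all groups in the same amount. The group names are abbreviated as NOTCH1 KD, RBPJ KD and control, where KD stands for knockdown. Because each value averages a whole pool, fewer cells of a type and less RNA per cell cannot be told apart. LGMN drew attention because it stood at rank 7 by p among 12070 tested genes in RBPJ KD against control. LGMN was thus chosen by its p in that contrast, and the values by which the other genes were selected are not given. All values of the 9 genes below are a description and not independent support.

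The lysosome is the acidic compartment in which cells break down proteins taken up from outside or delivered by autophagy. Most cathepsins with a lysosomal role are cysteine proteases of the papain type, while CTSD is an aspartic protease and CTSA a serine carboxypeptidase. Legumain is a cysteine protease of a separate family that cuts after asparagine, and in mice it converts several cathepsins from their single-chain to their 2-chain form. Cystatin C blocks papain-type cathepsins and, through another surface, legumain. In rodents the endoderm of the yolk sac is known for digesting maternal protein in its lysosomes.

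The deposited values were judged from their steps to be read counts that the authors had scaled by library, with totals of 10365695 to 10815554, and whether they also hold a correction by gene, such as for transcript length, cannot be told from them. The scaled count of RBPJ was 121 and 94.5 in RBPJ KD, 361 and 400 in NOTCH1 KD, and 447 and 391 in control. NOTCH1 stood at 48.0 and 49.5 in NOTCH1 KD, at 50.0 and 125 in RBPJ KD, and at 69.6 and 140 in control. RBPJ was thus lower in the embryos that received its small interfering RNA (limma, adjusted p = 0.00143), while the lower value of NOTCH1 in its own knockdown did not pass (limma, adjusted p = 0.634). Without the variance trend no gene passed, RBPJ included. In replicate 1 of RBPJ KD the NOTCH1 value was close to those of the NOTCH1 KD libraries. Transcripts listed as late morula and trophectoderm markers, such as CDH1, KRT8 and POU5F1, were present throughout. Over the 10 measured of 11, their sum reached 56130 to 63980 in NOTCH1 KD and 46208 to 58325 in RBPJ KD. In control it was 50068 to 51222.

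LGMN was higher by value in RBPJ KD than in the other groups. Its scaled counts were 1800 and 2110 in RBPJ KD, 1192 and 1368 in NOTCH1 KD, and 1293 and 1320 in control. Both RBPJ KD libraries lay above all 4 others, and the NOTCH1 KD libraries lay one on each side of the controls. The mean was 1955 ± 219 in RBPJ KD and 1307 ± 19.1 in control (SD, n = 2 each), a ratio of 1.50 and a log2 fold change of 0.58 (standard error 0.12). In NOTCH1 KD the mean was 1280 ± 124 (SD, n = 2), and the log2 fold change against control was -0.03 (standard error 0.12). Set directly against RBPJ KD, NOTCH1 KD was lower in LGMN by sign, with a log2 fold change of -0.61 (standard error 0.12).

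**Figure D1:**
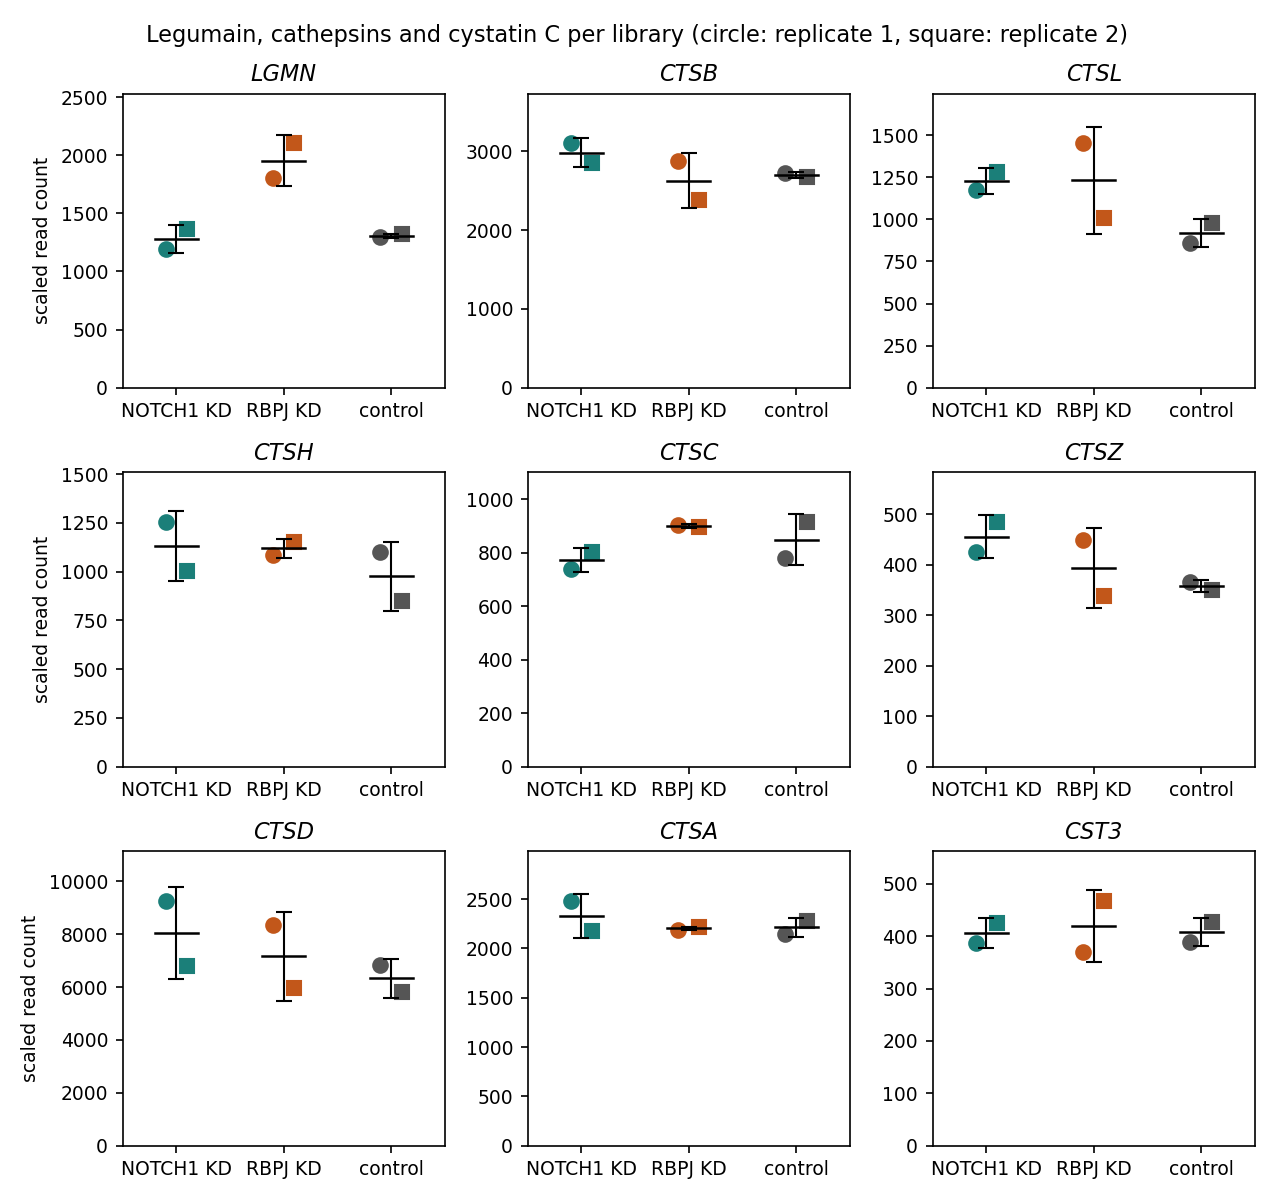
Scaled read counts of the 9 genes (vertical axis, starting at 0, its range set for each gene) in NOTCH1 KD, RBPJ KD and control; points are libraries (circle, replicate 1; square, replicate 2), the horizontal bar is the mean and the whiskers the SD of 2 libraries. LGMN stands at 1800 and 2110 in RBPJ KD, above the other 4 libraries at 1192 to 1368, while CST3 lies between 370 and 468 in all groups.

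Among the cysteine cathepsins, CTSL was the one with every knockdown library above both controls. CTSL, an endopeptidase, had 1175 and 1283 in NOTCH1 KD, 1457 and 1009 in RBPJ KD, and 859 and 977 in control. The log2 fold changes against control were 0.42 in NOTCH1 KD and 0.40 in RBPJ KD, each with a standard error of 0.16. In RBPJ KD the size rested on replicate 1: without it the CTSL value was 0.14, and without replicate 2 it was 0.67. A close relative of CTSL is CTSV, which the RefSeq gene table (ARS-UCD2.0) also lists under the synonym CTSL, so reads of similar stretches could have been assigned to either gene. CTSV had 16457 and 18533 in NOTCH1 KD, 17772 and 20370 in RBPJ KD, and 17936 and 20098 in control, with log2 fold changes of -0.12 and 0.00 in NOTCH1 KD and RBPJ KD against control. The groups overlapped in CTSV.

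CTSB, which acts as an endopeptidase and a dipeptidyl carboxypeptidase, had 3114 and 2859 in NOTCH1 KD, 2873 and 2381 in RBPJ KD, and 2731 and 2671 in control. Both NOTCH1 KD libraries lay above both controls by a small margin (log2 fold change 0.14, standard error 0.11), whereas the RBPJ KD libraries lay on either side of them (-0.05, standard error 0.11). CTSZ, a carboxypeptidase also known as cathepsin X, had 426 and 486 in NOTCH1 KD, 450 and 338 in RBPJ KD, and 366 and 350 in control. NOTCH1 KD again lay above control without overlap, with a log2 fold change of 0.35 (standard error 0.17), and the RBPJ KD libraries were the second highest and the lowest of all 6. The log2 fold change of CTSZ in RBPJ KD was 0.12 and became -0.08 without replicate 1 of that group.

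CTSH, an aminopeptidase, overlapped between all groups. It had 1256 and 1003 in NOTCH1 KD, 1084 and 1154 in RBPJ KD, and 1101 and 848 in control, with log2 fold changes of 0.22 and 0.21 against control in NOTCH1 KD and RBPJ KD. Without replicate 2 of the control, its lowest library, these became 0.03 and 0.02. CTSC, a dipeptidyl peptidase that activates serine proteases of immune cells, had 740 and 804 in NOTCH1 KD, 905 and 895 in RBPJ KD, and 781 and 917 in control. Here the knockdowns separated from each other but not from the control: NOTCH1 KD lay below RBPJ KD, with a log2 fold change of -0.22 (standard error 0.13) between them.

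CTSD, the aspartic protease, varied within groups. It had 9274 and 6807 in NOTCH1 KD, 8351 and 5968 in RBPJ KD, and 6853 and 5813 in control. The library numbered 1 was the higher one in each group, by ratios of 1.36 in NOTCH1 KD, 1.40 in RBPJ KD and 1.18 in control. The log2 fold change of CTSD in NOTCH1 KD was 0.33 with a standard error of 0.17, ranging from 0.11 without replicate 1 of NOTCH1 KD to 0.56 without its replicate 2, and in RBPJ KD it was 0.16, which became -0.08 without replicate 1 of RBPJ KD and 0.40 without its replicate 2. CTSB also had the higher value in replicate 1 of each group. In the table as a whole, 19.5% of tested genes did so. LGMN and CST3 had the lower value in replicate 1 of each group, as did 18.2% of tested genes. CTSA, which protects neuraminidase and beta-galactosidase in the lysosome, spanned the narrowest range of the 9. It had 2485 and 2174 in NOTCH1 KD, 2190 and 2215 in RBPJ KD, and 2147 and 2279 in control, and its highest library was 1.16 times its lowest.

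CST3, the inhibitor, did not separate the groups. Its scaled counts were 387 and 426 in NOTCH1 KD, 370 and 468 in RBPJ KD, and 389 and 428 in control, with log2 fold changes of -0.01 and 0.03 against control in NOTCH1 KD and RBPJ KD and a standard error of 0.16 for each. The ratio of the LGMN to the CST3 scaled count was 4.86 and 4.51 in RBPJ KD, 3.08 and 3.21 in NOTCH1 KD, and 3.33 and 3.09 in control, so that RBPJ KD stood apart in this ratio as in LGMN alone. These ratios compare libraries; they are not per transcript length and do not give the relative number of the molecules. The ratio of CTSL to CST3 was 3.04 and 3.01 in NOTCH1 KD, 3.93 and 2.16 in RBPJ KD, and 2.21 and 2.28 in control. It held no common level within RBPJ KD, where 1 library lay above all others and the other below them.

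None of the 9 genes passed an adjusted p of 0.05 over all 12070 tested genes in any of the 3 comparisons (limma without a replicate block, Benjamini-Hochberg). The share of all tested genes that passed was 0% in NOTCH1 KD against control, 0.00829% in RBPJ KD against control and 0.00829% in NOTCH1 KD against RBPJ KD, RBPJ itself being the gene that passed in the last 2. With the replicate number as a block, LGMN passed in RBPJ KD against control (limma, adjusted p = 0.0201) and in NOTCH1 KD against RBPJ KD (limma, adjusted p = 0.00585), and none of the other 8 genes passed. The shares of all tested genes that passed with the block were 1.14% in NOTCH1 KD against control, 0.0994% in RBPJ KD against control and 0.124% between the knockdowns. At an unadjusted p below 0.05 the count was 1 of 9 in NOTCH1 KD against control (CTSL), beside 7.29% of all tested genes. It was 2 of 9 in RBPJ KD against control (LGMN and CTSL), beside 4.34%, and 1 of 9 between the knockdowns (LGMN), beside 3.64%. Nothing is read from the counts of the RBPJ KD contrasts, since RBPJ KD against control chose LGMN and both use the same libraries.

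Without overlap between libraries, 3 of 9 genes were higher in NOTCH1 KD than in control (CTSB, CTSL and CTSZ), where 18.6% of all tested genes were, and none was lower, where 17.2% were. In RBPJ KD against control 2 of 9 were higher (LGMN and CTSL), beside 15.3% of all tested genes, and none was lower, beside 16.8%. Between the knockdowns, LGMN and CTSC were lower in NOTCH1 KD than in RBPJ KD, beside 15.5% of all tested genes, and none was higher, beside 17.5%. By sign, 6 of 9 were higher in NOTCH1 KD than in control and 7 of 9 in RBPJ KD than in control, beside 51.1% and 49.7% of all tested genes. The median log2 fold change of the 9 genes was 0.14 in NOTCH1 KD and 0.12 in RBPJ KD against control, beside 0.01 and -0.00 over all tested genes, and 0.02 between the knockdowns, beside 0.01. After quantile normalization the median of the 9 genes was 0.079 in NOTCH1 KD and 0.13 in RBPJ KD against control. The medians over all tested genes were then -0.0058 and -0.0072. Between the knockdowns the median of the 9 genes was then -0.0060. Those of CTSL and CTSH between the knockdowns were -0.0060 and -0.015 after quantile normalization, against 0.02 and 0.0050 without it. Without it 6 of 9 were higher by sign in NOTCH1 KD than in RBPJ KD, beside 52.7% of all tested genes. The comparisons of NOTCH1 KD and RBPJ KD with control share the control libraries.

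**Figure D2:**
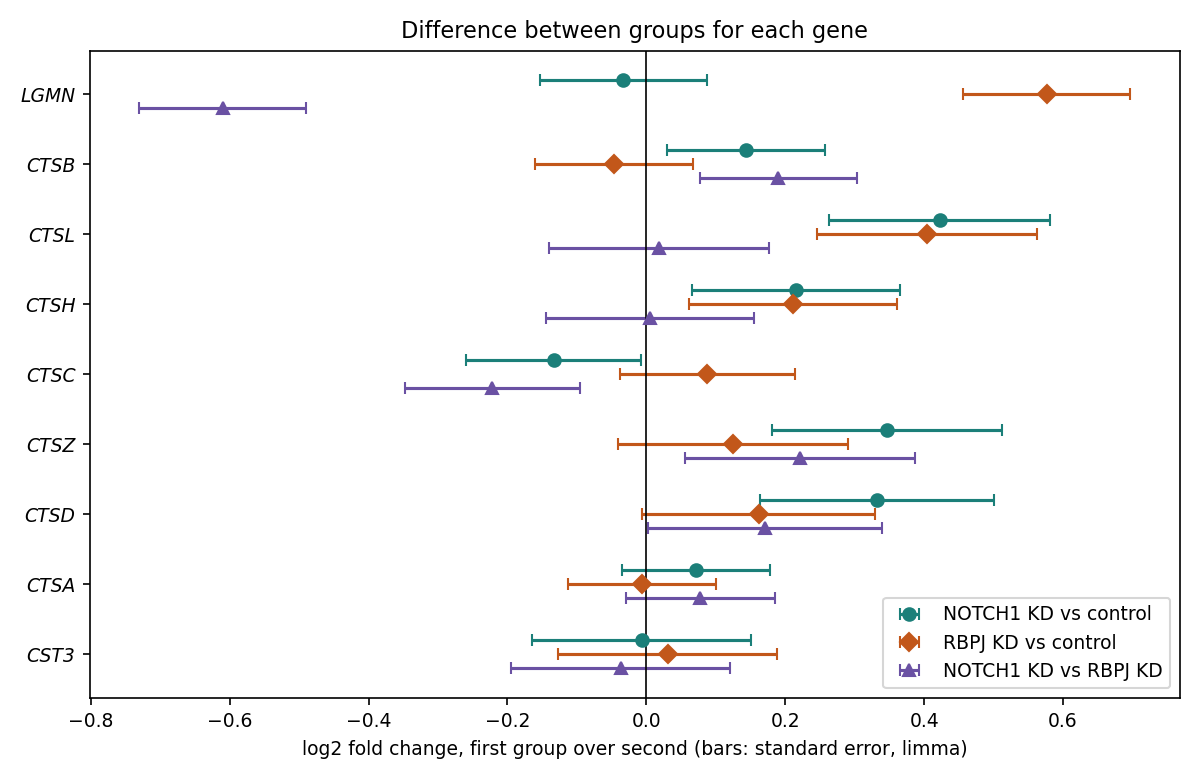
Log2 fold change (horizontal axis) of each of the 9 genes in NOTCH1 KD against control, RBPJ KD against control and NOTCH1 KD against RBPJ KD, with standard errors from limma as bars. LGMN lies at 0.58 in RBPJ KD against control and at -0.03 in NOTCH1 KD against control, while CTSL lies at 0.40 and 0.42.

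The 9 genes did not vary as one set. LGMN spanned the widest range, with its highest library 1.77 times its lowest, followed by CTSL at 1.70 and CTSD at 1.60. The spread within groups was widest for CTSD, at an SD of 0.29 on the log2 scale, and narrowest for CTSA, at 0.09, with LGMN at 0.12. Over the 6 libraries, Pearson's r of log2 values was 0.84 between CTSB and CTSD, 0.83 between CTSL and CTSZ, and 0.74 between CTSB and CTSZ. LGMN was apart from these, with r of -0.68 with CTSB, -0.27 with CTSD and 0.21 with CTSL. Its highest r with another of the 9 genes was 0.68, with CTSC, and CST3 had r of -0.79 with CTSD and -0.78 with CTSB. These values describe 6 libraries in 3 groups, which share their scaling, and carry no test.

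The genes most like LGMN over the 6 libraries were outside the lysosome lists. Among 8450 other genes averaging 100 or more, the 10 with the highest Pearson's r with LGMN were RBBP7, SEMA3F, TBC1D1, DUSP8, PEF1, RBMXL2, TOP3B, HOOK3, PDZD8 and ZAP70, with r from 0.95 to 0.98. RBBP7, a histone-binding protein of several chromatin complexes, had 3189 and 3377 in RBPJ KD, 2632 and 2857 in NOTCH1 KD, and 2849 and 2763 in control. DUSP8, a phosphatase of MAP kinases, had 581 and 710 in RBPJ KD, 385 and 439 in NOTCH1 KD, and 403 and 475 in control. Its ratio of means between RBPJ KD and control, 1.47, was close to that of LGMN, while the other 9 ran from 1.07 for PDZD8 to 1.30 for SEMA3F. SEMA3F, a secreted guidance factor, had 183 and 200 in RBPJ KD, 134 and 160 in NOTCH1 KD, and 146 and 148 in control. In each of these 3 genes both RBPJ KD libraries were above the other 4, as in LGMN, which is what the measure of likeness selects. Of the 7 cathepsins, CTSC came highest in this order, at place 378.

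**Figure D3:**
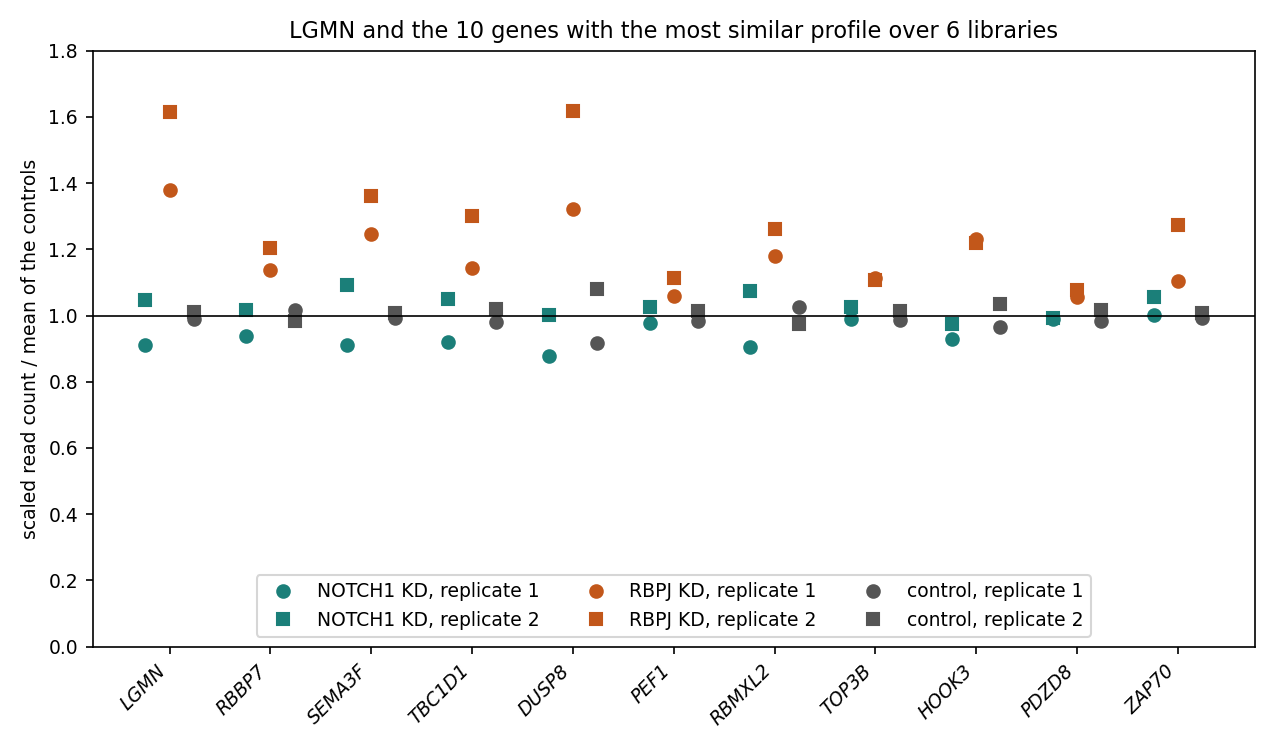
Scaled read count relative to the mean of the 2 control libraries (vertical axis) for LGMN and the 10 genes with the highest Pearson's r with it over 6 libraries; colours mark NOTCH1 KD, RBPJ KD and control, circles replicate 1 and squares replicate 2. DUSP8 comes closest to LGMN in size, with ratios of means to control of 1.47 and 1.50 in RBPJ KD.

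The rest of the lysosome was examined with 7 lists holding 139 other genes, of which 126 were in the table and 118 were tested. None of the 118 passed in any comparison (limma without a replicate block, adjusted p of at least 0.353). With the block CD63, NPC1 and SMPD1 passed in NOTCH1 KD against control (limma, adjusted p = 0.0189, 0.0203 and 0.0233), with log2 fold changes of 0.59, 0.55 and 0.50. At an unadjusted p below 0.05 there were 9 higher and 2 lower in NOTCH1 KD against control, beside 4.57% and 2.73% of all tested genes. There were 3 higher and 0 lower in RBPJ KD against control, beside 2.83% and 1.52%. Between the knockdowns 3 were higher and 1 was lower in NOTCH1 KD, beside 1.81% and 1.83%. The median log2 fold change was 0.05 in NOTCH1 KD and -0.00 in RBPJ KD against control. By sign, 71 were higher and 47 lower in NOTCH1 KD (60.2% higher, beside 51.1% of all tested genes). In RBPJ KD 58 were higher and 60 lower (49.2% higher, beside 49.7%). Both NOTCH1 KD libraries lay above both controls in 26 of the 118 (22.0%, beside 18.6%) and below them in 14 (11.9%, beside 17.2%). Both RBPJ KD libraries lay above both controls in 19 (16.1%, beside 15.3%) and below them in 18 (15.3%, beside 16.8%).

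Lysosomal hydrolases and membrane proteins spread to both sides of 0. Of 33 tested acid hydrolases, 20 were higher and 13 lower by sign in RBPJ KD, and 19 were higher and 14 lower in NOTCH1 KD. PSAP, the precursor of the saposins that help degrade sphingolipids, had 17668 and 15160 in NOTCH1 KD, 16644 and 15508 in RBPJ KD, and 13943 and 15167 in control. GUSB, beta-glucuronidase, had 2722 and 2593 in NOTCH1 KD, 2800 and 2889 in RBPJ KD, and 2314 and 2690 in control. Of 25 membrane proteins the median log2 fold change was 0.08 in NOTCH1 KD and 0.02 in RBPJ KD. TMEM9 had 4515 and 4305 in NOTCH1 KD, 3829 and 4286 in RBPJ KD, and 3064 and 4420 in control. LAPTM4B, a transmembrane protein of late endosomes and lysosomes, had 3986 and 3261 in NOTCH1 KD, 4224 and 3637 in RBPJ KD, and 4390 and 3558 in control. LAMP2, a main glycoprotein of the lysosomal membrane, had 3459 and 2865 in NOTCH1 KD, 3276 and 2957 in RBPJ KD, and 3198 and 3371 in control. In these 3 genes the libraries of each knockdown overlapped with those of the control.

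The vacuolar ATPase, the proton pump that acidifies lysosomes, had a median log2 fold change of 0.00 in NOTCH1 KD and -0.03 in RBPJ KD over 21 tested subunits and accessory proteins. ATP6AP1, an accessory subunit, had 3805 and 4312 in NOTCH1 KD, 3896 and 4647 in RBPJ KD, and 3017 and 3914 in control. ATP6V1E1, a subunit of the cytosolic part, had 3680 and 3980 in NOTCH1 KD, 3669 and 3714 in RBPJ KD, and 3577 and 3633 in control, and ATP6V1B2, another such subunit, had log2 fold changes of 0.09 in NOTCH1 KD and -0.04 in RBPJ KD. Of 22 genes for sorting to the lysosome or of the TFEB family of transcription factors that drive lysosomal genes, 15 were higher and 7 lower by sign in NOTCH1 KD, and 10 were higher and 12 lower in RBPJ KD. AP1B1, a subunit of a clathrin adaptor, had 2891 and 2624 in NOTCH1 KD, 2706 and 2643 in RBPJ KD, and 2234 and 2599 in control. GNPTAB, which begins the mannose 6-phosphate tag, had 2201 and 2382 in NOTCH1 KD, 2212 and 2293 in RBPJ KD, and 2484 and 2161 in control. VPS35, a retromer subunit, had 1805 and 1897 in NOTCH1 KD, 1662 and 1741 in RBPJ KD, and 1831 and 1837 in control.

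Further peptidases and inhibitors were few. A list of 8 genes held 6 other lysosomal peptidases and the palmitoyl thioesterases PPT1 and PPT2, which are not peptidases. Of the 8, 7 were higher by sign in NOTCH1 KD, with a median log2 fold change of 0.20, and 4 were higher in RBPJ KD, with a median of 0.01. PPT2 was the one lower in NOTCH1 KD, and the 4 higher in RBPJ KD were all peptidases. SCPEP1, a serine carboxypeptidase, had 3471 and 3206 in NOTCH1 KD, 3269 and 3590 in RBPJ KD, and 3143 and 3349 in control. PPT1 had 793 and 730 in NOTCH1 KD, 669 and 598 in RBPJ KD, and 786 and 608 in control, and its relative PPT2 had 1465 and 1601 in NOTCH1 KD, 1427 and 1960 in RBPJ KD, and 1533 and 2354 in control. Besides CTSV, the other cathepsins with the highest means were CTSF and CTSK. CTSF had 255 and 166 in NOTCH1 KD, 211 and 193 in RBPJ KD, and 179 and 122 in control, so that the RBPJ KD libraries lay above both controls. CTSK had 37.8 and 45.2 in NOTCH1 KD, 53.0 and 42.1 in RBPJ KD, and 83.5 and 51.2 in control. Over the 5 tested genes of that list the median log2 fold change was -0.43 in NOTCH1 KD and 0.00 in RBPJ KD. The NOTCH1 KD median was the value of CTSS, which averaged only 15.7 scaled reads (standard error 0.48). By sign 4 of the 5 were lower in NOTCH1 KD, CTSV by -0.12, and 1 was higher, CTSF at 0.48.

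CSTB, the intracellular cystatin, had 3763 and 3641 in NOTCH1 KD, 3800 and 4655 in RBPJ KD, and 3677 and 3520 in control. Both RBPJ KD libraries were above the other 4, and the log2 fold change against control was 0.23. SERPINB6, an inhibitor of serine proteases, had 445 and 392 in NOTCH1 KD, 393 and 458 in RBPJ KD, and 396 and 460 in control. SERPINB1 was low, at 19.5 and 20.6 in NOTCH1 KD, 23.0 and 30.0 in RBPJ KD, and 19.1 and 39.5 in control. Among these inhibitors CSTB was the one whose RBPJ KD libraries stood above control.

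**Figure D4:**
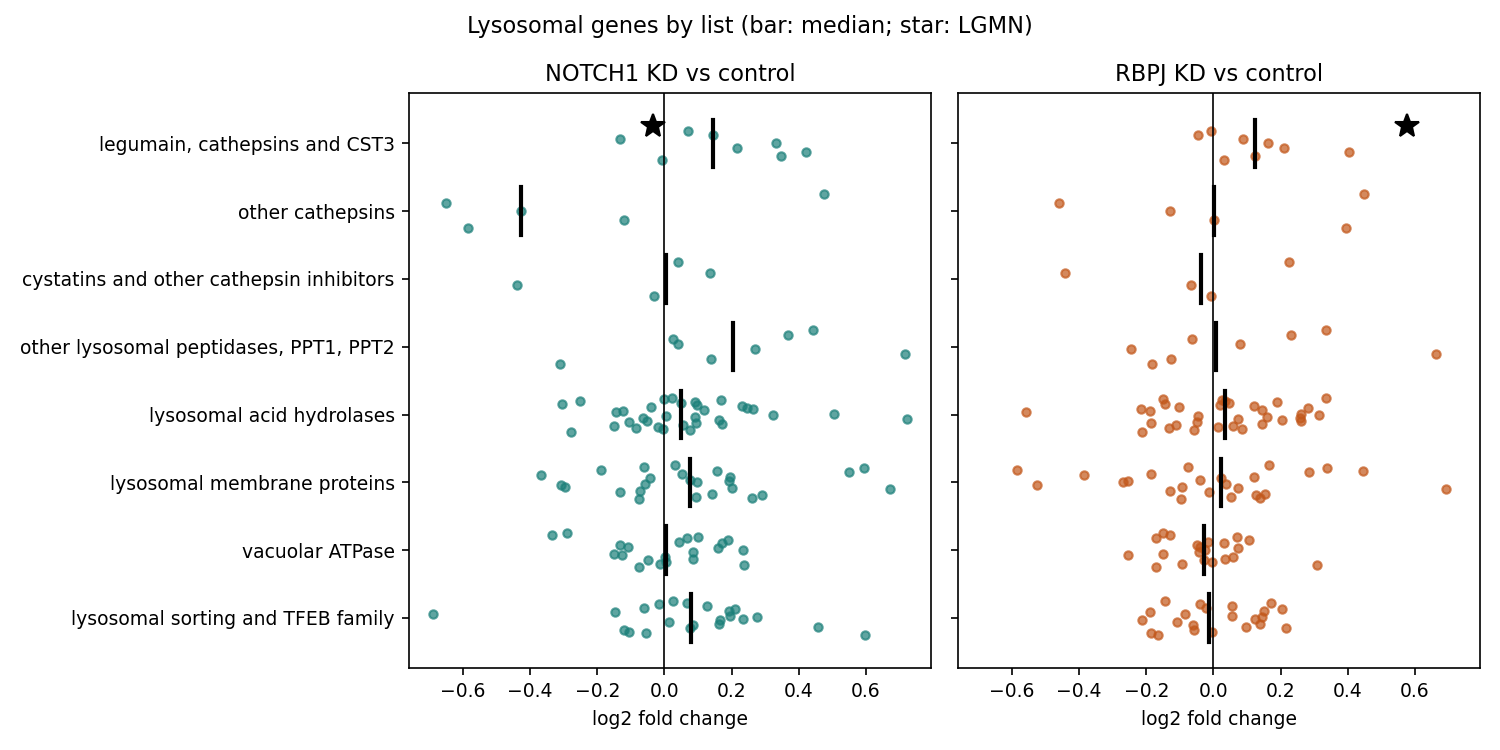
Log2 fold change (horizontal axis) of each tested gene, by list, in NOTCH1 KD against control (left panel) and RBPJ KD against control (right panel); vertical bars are list medians and the star is LGMN. LGMN lies at 0.58 in RBPJ KD, where the medians of the other 7 lists lie between -0.04 and 0.03. Single genes of these lists run there from -0.58 to 0.69, and OSTM1 at 0.69 and CPQ at 0.66 lie above LGMN.

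Markers of the hypoblast, the first endoderm of the embryo, were set beside these genes. Of 22 markers 21 were in the table and 20 were tested. Without overlap, 8 of 20 lay above control in NOTCH1 KD, beside 18.6% of all tested genes, and 8 in RBPJ KD, beside 15.3%. Of the 10 late morula and trophectoderm markers, 5 did so in NOTCH1 KD and 0 in RBPJ KD. None of the 20 passed without a replicate block (limma, smallest adjusted p = 0.346 in NOTCH1 KD and 0.983 in RBPJ KD against control). With the block LAMA1, NID2, APOE and FN1 passed in NOTCH1 KD against control (limma, adjusted p of 4.03e-05 to 0.0477). Of the late morula and trophectoderm markers, GATA3 and KRT18 also passed there with the block (limma, adjusted p = 0.0119 and 0.0415). GATA3 passed with it in NOTCH1 KD against RBPJ KD as well (limma, adjusted p = 0.0225). The summed hypoblast markers reached 101638 and 85046 in NOTCH1 KD, 95896 and 81911 in RBPJ KD, and 74423 and 76096 in control, a sum that FN1 leads at 37166 to 59510. No marker of this list was at 0 in all libraries, and CUBN was the lowest, at 5.28 to 12.3. CTSD and CTSB shared with this sum the highest library, replicate 1 of NOTCH1 KD, and the higher value of replicate 1 in both knockdowns. The library totals of scaled values shared both features, at 10815554 and 10590906 in NOTCH1 KD and 10508187 and 10433890 in RBPJ KD. The sums of late morula and trophectoderm markers, acid hydrolases and lysosomal membrane proteins shared both features too. In control, the late morula and trophectoderm sum was higher in replicate 1, as CTSD and CTSB were, and the hypoblast sum was lower. LGMN did not share the order of the hypoblast sum. Its highest library, replicate 2 of RBPJ KD, had the lowest hypoblast sum of the knockdown libraries. That library also had the lowest sum of late morula and trophectoderm markers of all 6. Single markers of the list had the order of LGMN, however. In 4 of the 20, picked after their values were seen, both RBPJ KD libraries were above the other 4, as in 4.84% of all tested genes. SOX17, a transcription factor of endoderm, had 161 and 208 in RBPJ KD, 126 and 142 in NOTCH1 KD, and 91.9 and 133 in control. GATA4, another such factor, had 78.4 and 90.3 in RBPJ KD, 74.6 and 77.5 in NOTCH1 KD, and 59.1 and 46.9 in control. The other two were FOXA2, at 61.5 and 57.5 in RBPJ KD, 40.9 and 44.2 in NOTCH1 KD, and 35.9 and 45.8 in control, and LAMB1, a laminin chain. Other markers of the list had another order. By sign, 15 of the 20 were higher and 5 lower in RBPJ KD than in control. HNF4A had 10.8 and 9.24 in RBPJ KD, 35.8 and 40.9 in NOTCH1 KD, and 10.6 and 26.2 in control. LAMA1, APOE and FN1 had their highest mean in NOTCH1 KD. Between the knockdowns, 4 of the 20 were higher without overlap in NOTCH1 KD, beside 17.5% of all tested genes. In the other direction, 5 were lower, beside 15.5%. The part of the hypoblast markers in these results was not tested.

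Markers of other cells that a pool could hold were summed as well. The 13 blood and immune cell markers summed to 2178 and 2685 in NOTCH1 KD, 2569 and 3114 in RBPJ KD, and 2494 and 3509 in control, led by CSF1R and HBA; CD68 also stands in the list of lysosomal membrane proteins. PTPRC, the common leukocyte antigen, was at 11.3 or below in every library, and TYROBP, ITGAM and CD3E were at 3.99 or below. This sum was highest in replicate 2 of the control, where LGMN stood at 1320. It was next highest, at 3114, in replicate 2 of RBPJ KD, where LGMN had its highest value, 2110. Both this sum and LGMN were higher in replicate 2 than in replicate 1 of each group. The part of these markers in the LGMN values was not tested. CSF1R was lower in NOTCH1 KD than in control and passed with the replicate block (limma, adjusted p = 0.00671). The 11 measured of 13 cumulus, granulosa and fibroblast markers summed to 650 and 730 in NOTCH1 KD, 720 and 750 in RBPJ KD, and 627 and 749 in control, led by COL1A1, COL1A2 and CYP19A1.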

How the data were processed

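Polyadenylated RNA of 6 libraries was analysed. The deposited table holds 1 signal value per gene and library, judged from its steps to be a read count that the authors had divided by a library factor. Per the submitters' processing notes, the tools were Salmon 0.14.1 and DESeq2 and the build ARS-UCD1.2; which did what, the annotation and any filters are not stated there. Of low values, 79.8% to 80.9% lay within 0.1 of a multiple of 1 step per library, too few to recover whole reads, so no count test was run, and a further correction by gene, such as for transcript length, cannot be told from the table; the steps give an approximate depth of 9650000 to 13600000 reads, replicate 1 of RBPJ KD being the deepest. Rows without a gene name (2551 of 17922, with 6.20% to 7.22% of each library's sum) were not used, and of 57 repeated rows the one with the higher mean kept its symbol; no symbol of the 9 genes was repeated. The RefSeq gene table is of another build, so no coordinates are given.

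Values were analysed as log2(value + 1), so fold changes are on that scale and understate those of low genes. The 12070 genes with a mean of at least 10 were fitted with limma 3.58.1 in R 4.3.3, with a variance trend and 3 residual degrees of freedom over all 6 libraries. Adjusted p (Benjamini-Hochberg over all tested genes) had to lie below 0.05. An exact permutation test of 2 against 2 libraries cannot go below 0.333 (two-sided), so none is given. The fit was tested on simulated data. Replicate numbers are shared between groups, but no label says that a number marks a common batch. The differences between replicate 1 and replicate 2 correlated between groups across 12070 genes. The values were 0.17 for NOTCH1 KD and control, 0.20 for RBPJ KD and control, and 0.21 for NOTCH1 KD and RBPJ KD. Values with the number as a block are therefore given where they change a call of a listed gene. Nothing in the labels says that replicates came from separate collections, so the spread behind every p-value is that between libraries and may be technical. The 9 genes and all lists were chosen with earlier results of these data known. Named were the 9 genes, NOTCH1, RBPJ, in each lysosome list the 3 genes with the highest mean where fewer than 2 passed, and the 10 genes most like LGMN, except that 1 hydrolase is not reported here; marker genes, CTSB with the higher value of replicate 1, and single genes named for being above control were picked from the values. Other settings tried were quantile normalization, median-of-ratios scaling, pseudocounts of 0.1 and 10, a minimum mean of 100 or none, fits of the compared groups alone, moderation that was robust or without a trend, summed repeated symbols, the replicate number as a block, and leaving out each library. Reads shared by overlapping or antisense genes cannot be seen in the values. Python 3.11.15 with matplotlib 3.10.9 drew the figures.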

Additional observations from a re-analysis of the deposited data

How the results depend on the processing

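Without a replicate block, none of the 9 genes and no other tested lysosomal gene passed in any of the 3 comparisons under any alternative, including the omission of each library. With the number as a replicate block, 1 of the 9 genes passed in RBPJ KD against control and 1 in NOTCH1 KD against RBPJ KD. It was LGMN both times (limma, adjusted p = 0.0201 and 0.00585). With the block, 3 other lysosomal genes passed in NOTCH1 KD against control, namely CD63, NPC1 and SMPD1, and the block changed no other call of the 9 genes or the 118 other lysosomal genes. Genes passing over the whole table then numbered 138, 12 and 15 in NOTCH1 KD against control, RBPJ KD against control and NOTCH1 KD against RBPJ KD, against 0, 1 and 1 without it. The cause was not tested.

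Omitting each library in turn, the log2 fold change of LGMN in RBPJ KD against control ran from 0.46 to 0.69, and in NOTCH1 KD against RBPJ KD from -0.72 to -0.50. The median of the 9 genes ran from 0.07 to 0.21 in NOTCH1 KD, from 0.08 to 0.17 in RBPJ KD, and from -0.018 to 0.13 between the knockdowns, lowest without replicate 1 of NOTCH1 KD and highest without its replicate 2. A group left with 1 library was assumed to vary like the others. Of the 10 genes most like LGMN, 3 were shared with the order by Spearman's correlation and 5 with that at a minimum mean of 10. Tests for raw counts were not run. With 2 libraries a group, differences within the spread of replicates were not detectable at this depth.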
